A study of Homo sapiens with 48 samples.

Results

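The canonical histone genes were taken from the count table as every protein-coding row whose symbol named an H2A, H2B, H3 or H4 gene of the histone clusters (H2AC, H2BC, H3C or H4C and a number) or a numbered H1 linker histone. This rule used names only and found 70 of the 60610 rows: 10 H1, 16 H2A, 17 H2B, 13 H3 and 14 H4 genes. Of these, 55 lie on chromosome 6 and 11 on chromosome 1. The rule also took in H1-10, a linker histone that is made outside S phase from an ordinary polyadenylated mRNA, and it is kept apart below wherever a sum would hide the others.

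RNA came from 1 clone of the human embryonic kidney line HEK293 that stably expresses the type 1 angiotensin II receptor (AT1R), grown out from single cells after drug selection in which losartan, a blocker of the receptor, accompanied puromycin. The cells were kept in serum-free medium with or without 1 nM angiotensin II (AII), 10 µg/L epidermal growth factor (EGF) or both (AII+EGF), for 6 h or 24 h, which gives 8 groups that all carry the receptor transgene. After the exclusions given below, 38 of 48 libraries were compared: 4 control, 5 AII, 3 EGF and 4 AII+EGF libraries at 6 h, and 6 control, 5 AII, 5 EGF and 6 AII+EGF libraries at 24 h. Nothing in the labels ties a library to a separate culture, so every p-value measures only the spread between these libraries.

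Canonical histone proteins form the nucleosome, with H2A, H2B, H3 and H4 in its core and H1 on the linker DNA, and most of their mRNA is made in S phase, when new DNA must be packed. Those mRNAs are unusual in lacking a poly(A) tail: they end a few bases after a short stem-loop, which the stem-loop binding protein SLBP recognises. Some histone genes also give longer, polyadenylated transcripts that run past the stem-loop or skip it, and poly(A)-based libraries chiefly report those. A count of a histone gene in such a library is therefore not the amount of its S phase mRNA.

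The stem-loops are shown because they are what the tail-less mRNAs end in and what polyadenylated transcripts have passed or lost. Annotated transcripts (GENCODE release 44, matched on the gene identifiers of the count table) were found for 64 of the 70 members, and in 55 of them a perfect stem-loop of 16 bases was present, in 5 versions that differ in the stem or in the loop. The sequences below run 5′ to 3′ as DNA letters, with the 4 loop bases in capitals.
H1-2, H2BC21, H2AC6, H3C14, H3C15 and 30 others: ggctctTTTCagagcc
H2BC11, H2BC12, H2BC4, H2BC5 and 4 others: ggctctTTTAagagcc
H4C5, H4C8, H4C11 and 4 others: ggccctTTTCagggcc
H4C14, H4C15, H4C9 and H4C12: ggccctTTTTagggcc
H2AC20 alone: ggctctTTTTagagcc
The 11 H4 genes with a stem-loop shared a stem that no other member had. Of the members the results turn on, H1-2 and H2BC12 had only the short model that stops 4 or 5 bases after the stem-loop, H2BC21 had a single model of 2224 bases that runs 1729 bases past it, and H4C14 had models reaching 1169 bases past it. H2BC11 had a 480-base model with a stem-loop end and a 950-base model without the stem-loop that has a poly(A) signal.

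H2A and H2B genes often sit head to head, sharing the DNA between their start sites. For H2BC11 (minus strand of chromosome 6, 27132316 to 27132795, RefSeq on GRCh38.p14) and H2BC21 (minus strand of chromosome 1, 149884459 to 149886682), the 250 bases before the start are printed because each region also starts an H2A gene, H2AC11 and H2AC20, whose values are set beside it below. Capitals mark the octamer ATTTGCAT, the CCAAT box CCAAT and the TATA box TATAAA, each searched on both strands.
H2BC11, chr6:27132796-27133045, minus strand: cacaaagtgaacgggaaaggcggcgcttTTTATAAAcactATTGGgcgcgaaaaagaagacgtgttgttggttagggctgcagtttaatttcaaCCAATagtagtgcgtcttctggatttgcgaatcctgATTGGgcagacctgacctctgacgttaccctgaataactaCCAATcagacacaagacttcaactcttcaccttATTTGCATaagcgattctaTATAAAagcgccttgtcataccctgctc
H2BC21, chr1:149886683-149886932, minus strand: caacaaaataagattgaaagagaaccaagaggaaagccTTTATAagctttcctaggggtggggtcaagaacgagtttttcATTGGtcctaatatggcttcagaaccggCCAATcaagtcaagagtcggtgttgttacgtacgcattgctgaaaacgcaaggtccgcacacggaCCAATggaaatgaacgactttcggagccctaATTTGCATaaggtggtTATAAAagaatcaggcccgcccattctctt
Each printed region had an octamer and then a TATA box near the start of the H2B gene, and a TATA match near the far end, towards the H2A gene. The octamer was found in the same window of 14 of 17 H2B genes and 11 of 15 H2A genes with a promoter entry, in none of 11 H3, 12 H4 and 9 H1 genes, and in 1.68% of all 27305 promoters. A CCAAT box was present in all H2A, H2B and H3 windows, in 3 of 12 H4 windows and in 32.7% of all promoters, and a TATA box in 42 of 64 members and 11.4% of all promoters. Where an H2A and an H2B gene sit head to head, their windows cover largely the same DNA, and a match can count for both. Such matches describe letters and are not evidence of binding.

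The 38 libraries held 17783804 to 29956472 counts. Levels are given as CPM, the usual depth-scaled count, on library totals adjusted by TMM factors. Of the 10 libraries left out, 8 formed 4 near-identical pairs across or within groups (chi-square per degree of freedom 0.397 to 0.505 over genes with 100 or more counts summed over both libraries, against 2.02 for the next closest pair), and 2 had labels in doubt. ARC, an immediate early gene that responds to these stimuli, stood at 88.6 CPM in one of the latter, labelled AII 6 h, and at 7.51 CPM in the other, labelled AII+EGF 6 h. A title run here means titles that follow each other and cover each treatment 1 or 2 times, which the labels do not call a batch. Differences within a title run, given below without a spread, therefore rest on 1 or 2 libraries per group. Among the libraries used, the last of each 24 h group (replicate 6) belonged to the same title run. In the 4 libraries of that run the response was weak. ARC was 12.9 CPM in its AII+EGF library against 37.1 to 61.9 CPM in the other 5 AII+EGF libraries at 24 h, and 4.16 CPM in its control. That run is called run 8 below, and calls at 24 h are given with and without it. The transgene AGTR1 was abundant in every group (means 4271 to 13066 CPM), as were NEFL and NEFM, neurofilament genes known to be expressed in HEK293 cells (653 to 8592 CPM). AGTR1 was not level between groups. Its mean was 4271 CPM in control and 10041 CPM with AII+EGF at 6 h, and 7363 and 13066 CPM at 24 h. By the test described below, AGTR1 and NEFM were called higher with AII+EGF at both times. The kidney developmental factor GATA3 was at 7.13 to 9.86 CPM and PAX2 at 0.505 to 2.96 CPM.

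Only 31 of the 70 members had enough counts to be tested, among 19626 genes. None of the 39 others had more than 16 counts in any of the 38 libraries, and 9 of them had no count at all. The tested members were 4 H1, 6 H2A, 9 H2B, 5 H3 and 7 H4 genes. Counted by place, 9 of 11 members on chromosome 1 were tested and 20 of 55 on chromosome 6. The copies of 3 pairs could not be told apart: H4C14 and H4C15, H3C14 and H3C15, and H2AC18 and H2AC19 had counts within 6.99%, 2.29% and 2.30% of each other in each of the 38 libraries, much closer than counting error (chi-square per library 0.191, 0.00873 and 0.0191). Counting error alone would part independent counts further, so the copies of a pair are counted as uncertain, and the 31 tested members stand for 28 distinguishable ones, and other members that share coding sequence may share reads as well.

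Whether a member had enough counts to be tested went with its annotated transcript end. Of 17 members with a tailed model, one that ends past or without the stem-loop and has a poly(A) signal (AATAAA or ATTAAA) in its last 60 bases, 15 were tested. Of 42 members with stem-loop ends only, 13 were tested and 6 had no count. The median level was 2.87 CPM per kb of the longest model in the first class (0.00120 to 143) and 0.149 CPM per kb in the second (0 to 130). No test was run, since the annotation may itself rest on where polyadenylated reads were seen. The classes overlapped widely: H2BC12, which has a stem-loop end only, stood at 130 CPM per kb, next to H1-10 at 143, and H4C9 (57.4 CPM per kb) and H1-2 (32.1 CPM per kb) stood above the tailed core histone H4C14 (30.2 CPM per kb). RefSeq, however, gives H2BC12 a span of 27138293 to 27146858 on chromosome 6, far longer than its short GENCODE model. Its class and its level per kb therefore depend on the annotation used. Of the remaining 11 members, 5 had neither kind of model, among them H2AC11, and 6 had no transcript entry, among them H2AC18 and H2AC19.

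**Figure D1:**
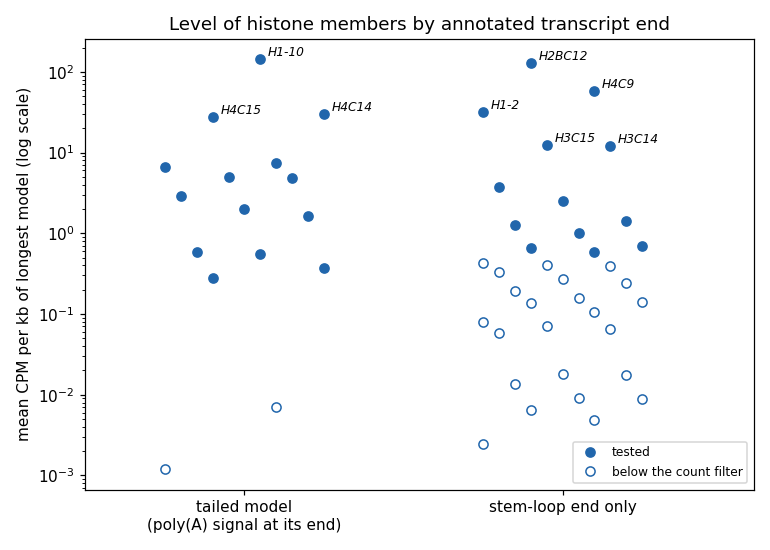
Mean CPM per kb of the longest annotated model over 38 libraries (vertical, log scale) for 16 of the members with a tailed model and the 42 with stem-loop ends only; filled points passed the count filter and the 6 members without any count are not drawn. Most tailed members are filled, and H2BC12 at 130 stands among the highest points although its GENCODE model has a stem-loop end only.

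After 6 h of joint stimulation a set of histone transcripts was lower, several of them from the chromosome 1 cluster. Calls rest on edgeR's quasi-likelihood F test whose p was adjusted by Benjamini-Hochberg over the 19626 genes tested. To be called, a member needed an adjusted p under 0.01, a 1.5-fold or larger difference and a mean above 5 CPM in the higher group. With AII+EGF at 6 h, 9 of 31 members were called, all lower, against 12% of all tested genes called and 5.53% called lower. Counting each pair of copies once, these were 6 of 28. On chromosome 1, 7 of 9 tested members were called lower, or 4 of 6 with copies counted once, and on chromosome 6, 2 of 20. The difference between the chromosomes was not tested, and the level a call needs bears on it: 7 of the 9 averaged above 5 CPM over the 38 libraries, against 8 of the 20. By family, 3 of 6 H2A, 2 of 9 H2B, 2 of 5 H3, 2 of 7 H4 and 0 of 4 H1 genes were called. By transcript end, 5 of 15 members with a tailed model, 2 of 13 with stem-loop ends only and both unmatched ones were called. The level a call needs bears on this split too. The median log2 change was −0.52 over the tested members with a tailed model and −0.60 over those with stem-loop ends only. The median log2 change was −0.57 over the members and −0.03 over all genes, and 29 of the 31 estimates were below 0.

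H4C14 (149832657 to 149833052, plus strand), which with its copy H4C15 encodes core histone H4 on chromosome 1, had the firmest fall. Its CPM was 56.8, 52.5, 52.5 and 53.7 in the 6 h control libraries and 21.96, 24.7, 24.2 and 27.5 in the AII+EGF libraries. Every stimulated library lay far below every control. The log2 change was −1.13 ± 0.13 (SE, adjusted p = 3.71e-09), a 2.19-fold fall, and within the title runs that held both groups it was −1.18 (run 4) and −0.93 (run 5).
H3C14, one of the H3 copies beside it, stood at 7.82, 10.6, 7.85 and 11.7 CPM in controls and at 4.05, 5.09, 4.07 and 3.51 CPM after AII+EGF. These groups did not overlap either, although the controls spread more widely. Its log2 change was −1.19 ± 0.21 (adjusted p = 1.79e-05).
H2AC18, an H2A gene of the same cluster, had 20.3, 21.01, 13.4 and 15.8 CPM in controls and 9.56, 9.10, 8.29 and 8.78 CPM after AII+EGF, with no overlap and a log2 change of −0.98 ± 0.20 (adjusted p = 0.000169).
H2BC21, the H2B gene with the long tailed model, fell from 12.3, 12.9, 13.4 and 10.3 CPM to 5.90, 6.00, 5.62 and 6.30 CPM. Its stimulated libraries lay close together and below all controls, and the log2 change was −1.04 ± 0.24 (adjusted p = 0.000841). Using only the title runs that held all 4 treatments at 6 h, its adjusted p was 0.014 and it was no longer called, while the other 8 members and H3C10 were.

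On chromosome 6 the called members were H2AC6 and H2BC5, an H2A and an H2B gene with tailed models. H2AC6 was at 8.94, 6.75, 6.67 and 5.52 CPM in controls and at 2.83, 3.05, 3.74 and 3.51 CPM after AII+EGF, a log2 change of −1.08 ± 0.19 (adjusted p = 1.76e-05). H2BC5 was at 7.56, 8.30, 7.47 and 5.70 CPM in controls and at 2.59, 3.11, 4.92 and 4.54 CPM after AII+EGF, a log2 change of −0.94 ± 0.19 (adjusted p = 0.000116). Neither gene's groups overlapped, and in H2BC5 the stimulated libraries fell into a lower and a higher pair. The lower pair belonged to title run 1 and the higher pair to runs 4 and 5. Run 1 had no control in the comparison, so for its AII+EGF libraries run and treatment cannot be told apart. Within runs 4 and 5 the log2 difference was −0.69 and −0.72 for H2BC5 and −1.07 and −0.93 for H2AC6. H3C10 missed a call only on size (−0.57 ± 0.13, adjusted p = 0.000903) and H2BC4, also on chromosome 6, only on level (−0.89 ± 0.24, adjusted p = 0.00323). In all, 13 members had no overlap between the groups, each lower after AII+EGF, against 33.4% of all tested genes without overlap.

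Other abundant members did not pass the test at the same time and treatment. H2BC12, an H2B gene and the most abundant core histone among the members, had 72.4, 71.4, 65.3 and 63.6 CPM in controls and 64.8, 72.4, 63.7 and 77.5 CPM after AII+EGF. The groups overlapped fully, and the log2 change was 0.03 (95% interval −0.28 to 0.34). For H4C9, an H4 gene on chromosome 6 with a stem-loop end only, it was −0.12 (−0.50 to 0.26), and for H2BC11 −0.23 (−0.66 to 0.19). All 3 intervals lie above the estimate for H4C14.

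**Figure D2:**
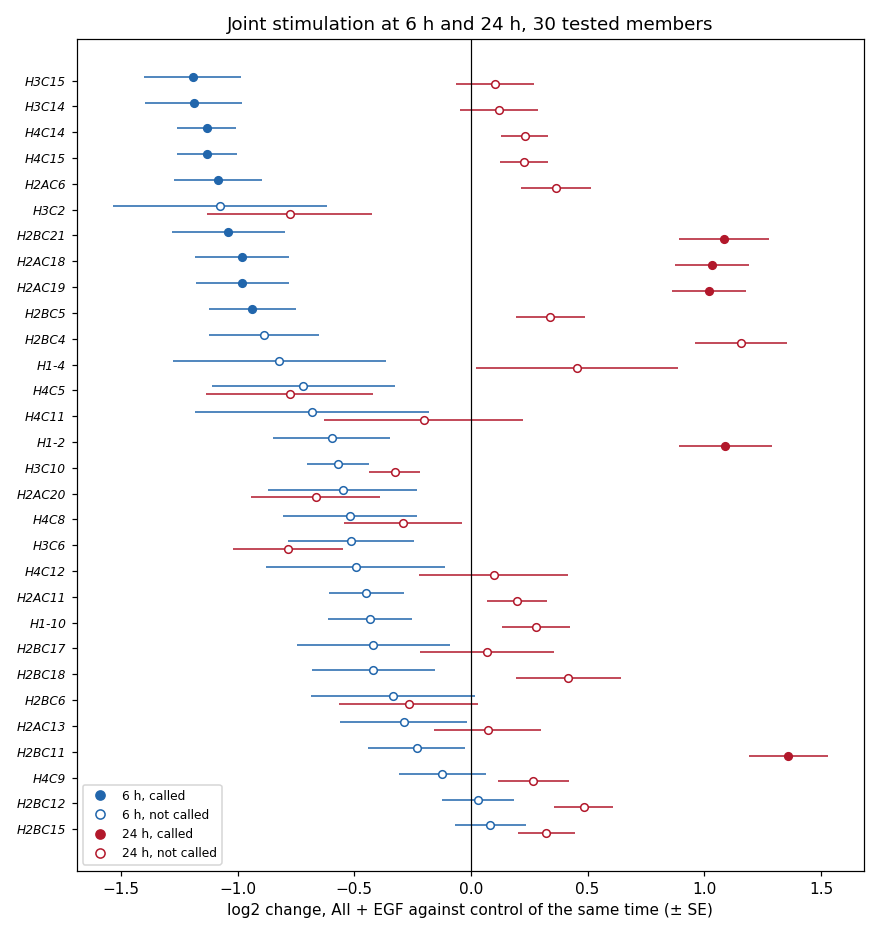
Log2 change (horizontal, ± SE) of AII+EGF against the control of the same time for 30 tested members, ordered by the 6 h value; blue is 6 h, red is 24 h, and filled points are called. The 9 filled blue points lie between −1.19 and −0.94, and the 5 filled red points lie to the right of 1.

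Either stimulus alone gave no called member at 6 h. With EGF, 0 of 31 members were called by edgeR and by DESeq2, where 1.94% of all genes were called, and 7 members had an unadjusted p under 0.05. H4C14 was at 34.1, 35.98 and 38.9 CPM in the EGF libraries, below every control and above every AII+EGF library. This step from control was −0.57 ± 0.14 (adjusted p = 0.00576), just under the 1.5-fold limit, so that H4C14 and H4C15 were called where no fold minimum was set and also where run 8, whose libraries all belong to 24 h, was left out of the fit. H2BC21 lay between control and AII+EGF in the same way, at 7.38, 8.69 and 8.90 CPM (−0.56 ± 0.26, adjusted p = 0.237).
AII alone left 0 of 31 members called by either tool, against 0.469% of all genes, with 2 members at an unadjusted p under 0.05. H4C14 stood at 43.5 to 51.9 CPM in the 5 AII libraries, all below the lowest control of 52.5 CPM, and its log2 change was −0.14 ± 0.12 (adjusted p = 0.696).
Between AII+EGF and EGF at 6 h, 0 of 31 members were called by edgeR or DESeq2 (2.92% of all genes), 13 had an unadjusted p under 0.05 and 6 had an adjusted p under 0.05. The values for H4C14 were −0.56 ± 0.13 (adjusted p = 0.00422) and for H2AC6 −0.68 ± 0.20 (adjusted p = 0.0222). Whether the joint response exceeded the sum of the single ones was tested as an interaction, which called 0 members by either tool and 0.229% of all genes. For H4C14 the interaction was −0.42 (95% interval −0.79 to −0.06, adjusted p = 0.379), and 4 members had an unadjusted p under 0.05.

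**Figure D3:**
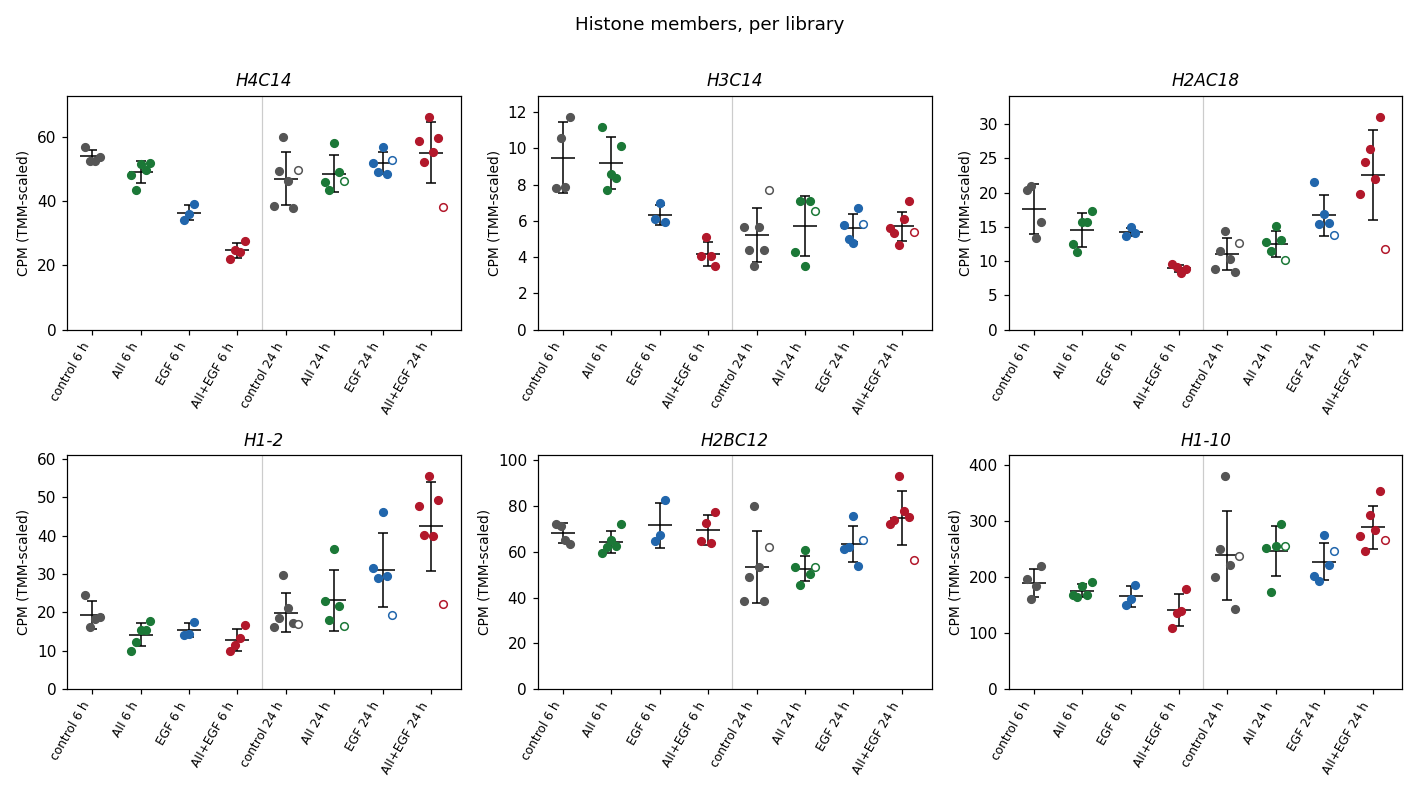
TMM-scaled CPM per library (vertical, from 0) of 6 members in the 8 groups; points are libraries, open points belong to run 8, and bars give mean ± SD. H4C14, H3C14 and H2AC18 are lowest after 6 h of AII+EGF, H2BC12 is level there, and the open points of the AII+EGF 24 h group lie below the filled ones for H4C14, H2AC18, H1-2 and H2BC12.

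At 24 h the members called were higher rather than lower, and other members led. H2BC11, an H2B gene of the chromosome 6 cluster, stood at 3.95, 4.29, 4.52, 4.23 and 3.06 CPM in the control libraries outside run 8 and at 4.59 CPM in that of run 8. After AII+EGF it was at 11.98, 11.5, 12.5, 10.3 and 13.02 CPM outside run 8 and at 4.24 CPM in run 8. So 5 of 6 stimulated libraries lay far above the highest control, and that of run 8 lay among the controls. The log2 change was 1.36 ± 0.17 (adjusted p = 3.74e-07) with that run and 1.58 ± 0.12 (adjusted p = 2.63e-11) without it. Within title runs the log2 difference was 1.51, 1.38 and 2.09 in runs 2, 3 and 6 and −0.12 in run 8.
With EGF alone H2BC11 was at 9.25, 7.66, 9.42 and 6.27 CPM, and at 5.61 CPM in run 8. All of these lay above the highest control, so the groups did not overlap. The log2 change was 0.89 ± 0.18 (adjusted p = 0.00311). That call was lost when any of EGF replicates 1, 3 or 4 or control replicate 5 was left out (up to an adjusted p of 0.0756 over all alternatives, reached when only the 2 groups entered the fit), whereas without run 8 it was 1.03 ± 0.13 (adjusted p = 2.82e-06). AII alone left it at 3.26 to 4.52 CPM, a log2 change of 0.00 (95% interval −0.37 to 0.37).

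With AII+EGF at 24 h, 5 of 31 members were called, all higher, against 2.9% of all genes called and 1.7% called higher. They were H2BC11, H2BC21, H1-2 and the copies H2AC18 and H2AC19, so that 1 of 4 H1, 2 of 6 H2A and 2 of 9 H2B genes were called and none of 5 H3 and 7 H4 genes. H2BC21, which had fallen at 6 h, was at 19.9, 24.4, 18.6, 18.3 and 21.8 CPM, and at 5.96 CPM in run 8, against 7.43, 8.27, 10.6, 9.21 and 9.27 CPM in controls and 6.60 CPM in the run 8 control. Outside run 8 every stimulated library lay well above every control, and its log2 change was 1.08 ± 0.19 (adjusted p = 8.42e-05) with that run and 1.22 ± 0.10 without it. Within runs it was 1.497, 0.90 and 1.23 in runs 2, 3 and 6 and −0.15 in run 8.
H1-2, a linker histone of the chromosome 6 cluster that is made in S phase, was at 47.7, 40.1, 55.5, 39.98 and 49.2 CPM, and at 22.1 CPM in run 8, against 16.2 to 29.7 CPM in the 6 controls (median 17.8). Again the run 8 library alone overlapped the controls. Its log2 change was 1.09 ± 0.20 (adjusted p = 0.000138), and 1.20 ± 0.18 (adjusted p = 1.10e-05) without run 8.
H2AC18 was at 19.8, 24.5, 26.3, 21.99 and 31.1 CPM, and at 11.7 CPM in run 8, against 8.40 to 14.4 CPM in the controls (median 10.9), a log2 change of 1.03 ± 0.16 (adjusted p = 1.32e-05), and of 1.23 ± 0.14 (adjusted p = 1.26e-07) without run 8. H2BC4, at a lower level, had an estimate of 1.16 ± 0.20 (adjusted p = 5.76e-05), and H2BC12 one of 0.48 ± 0.12 (adjusted p = 0.00529), which without run 8 was 0.62 ± 0.14 and called.

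Because of the run 8 library, 0 members had AII+EGF and control libraries that did not overlap at 24 h (4.73% of all genes), and with EGF alone 1 did (1.53% of all genes). Without the run, 7 members were free of overlap after AII+EGF and 6 after EGF, each of them higher, where 12.6% and 6.41% of all genes were. H4C14 and H3C14, the leading genes at 6 h, were not called at 24 h, with log2 changes of 0.23 ± 0.10 (adjusted p = 0.105) and 0.12 ± 0.17 (adjusted p = 0.672). Without run 8 these were 0.35 ± 0.10 (adjusted p = 0.0111) and 0.30 ± 0.17 (adjusted p = 0.230), again not called. Of the 31 estimates, 23 were above 0 and 8 below, and 17 members had an unadjusted p under 0.05. Among those below were the H3 genes H3C6 (−0.78 ± 0.23, adjusted p = 0.0158) and H3C10 (−0.33 ± 0.11, adjusted p = 0.0319), neither of them called. Without run 8 they were at −0.84 ± 0.25 and −0.33 ± 0.11, again not called. The median over the members was 0.23, against −0.02 over all genes.
EGF alone at 24 h called 1 of 31 members, H2BC11, against 0.245% of all genes called and 0.163% called higher. Without run 8 the count was 4, adding H2BC21 and the copies H2AC18 and H2AC19, and with title runs as a block it was 3, adding H1-2 and H2BC21 (137 genes in all, against 48). AII alone called 0 members by edgeR and DESeq2, against 0% of all genes, with 0 members at an unadjusted p under 0.05. AII+EGF against EGF called 0 members by either tool (0.0917% of all genes), although 9 had an unadjusted p under 0.05. H2BC11 had 0.47 ± 0.17 there (adjusted p = 0.267), and 0.55 ± 0.13 (adjusted p = 0.0156) without run 8, where still 0 members were called. The interaction at 24 h called 0 members by either tool and 0% of all genes, and 1 member had an unadjusted p under 0.05. Without run 8 it also called 0 members.

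At 24 h of AII+EGF the H2B partner had the higher estimate in each head-to-head pair tested. There were 11 pairs of members with start sites facing away from each other within 1000 bases, and in 3 of them both partners were tested. In the pair of H2BC11 and H2AC11, whose starts lie 248 bases apart, H2AC11 was at 8.56, 9.28, 7.78, 5.92 and 7.75 CPM after AII+EGF at 24 h, and at 5.10 CPM in run 8, against 5.59 to 7.44 CPM in controls. Its groups overlapped, and its log2 change was 0.20 ± 0.13 (adjusted p = 0.300), where H2BC11 had 1.36 ± 0.17. Without run 8 these estimates were 0.30 ± 0.13 (adjusted p = 0.0917) and 1.58 ± 0.12.
In the pair of H2BC21 and H2AC20, 236 bases apart, H2AC20 was low, at 0.415 to 1.29 CPM (median 0.739) after AII+EGF at 24 h and at 0.831 to 1.95 CPM (median 1.27) in controls. Its log2 change was −0.67 ± 0.28 (adjusted p = 0.0844), which did not pass the test, beside 1.08 ± 0.19 for H2BC21. Without run 8 these estimates were −0.76 ± 0.27 (adjusted p = 0.0361, not called) and 1.22 ± 0.10.
In the pair of H2BC4 and H2AC6, 246 bases apart, both estimates at 6 h were negative (−0.89 ± 0.24 and −1.08 ± 0.19), and at 24 h they were 1.16 ± 0.20 and 0.36 ± 0.15. Without run 8 the 24 h estimates were 1.35 ± 0.20 and 0.55 ± 0.16 (adjusted p = 0.011 for H2AC6). Both genes were then higher without overlap, and neither was called. No test was made of the difference between partners.

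**Figure D4:**
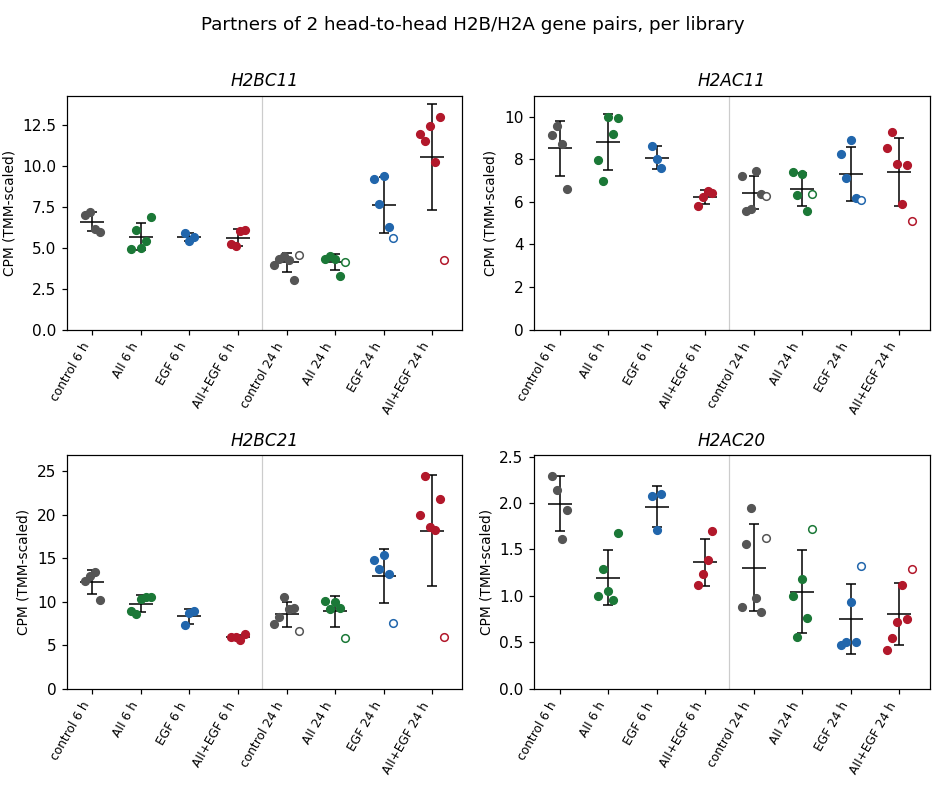
TMM-scaled CPM per library (vertical, from 0) of the head-to-head partners H2BC11 and H2AC11, and H2BC21 and H2AC20, in the 8 groups; open points belong to run 8 and bars give mean ± SD. Outside run 8 the H2B partner stands apart from control after 24 h of AII+EGF, and the H2A partner overlaps its controls.

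The response to AII+EGF was set directly against time, as the 24 h change minus the 6 h change. By this test 12 of 31 members were called, all higher at 24 h, against 11.6% of all genes called and 5.5% called higher. Without run 8 there were 13, again all higher. The differences were 2.12 ± 0.31 for H2BC21, 2.01 ± 0.26 for H2AC18, 1.69 ± 0.32 for H1-2, 1.59 ± 0.27 for H2BC11 and 1.36 ± 0.16 for H4C14, on the log2 scale, with adjusted p from 3.98e-08 to 0.000117. H2BC21 and H2AC18 passed the test in both directions, lower at 6 h and higher at 24 h, whereas H4C14, H3C14, H2AC6 and H2BC5 were called lower at 6 h only and H2BC11 and H1-2 higher at 24 h only. For the EGF response the same test called 0 members by edgeR and 3 by DESeq2 (1.03% of all genes by edgeR), with 15 members at an unadjusted p under 0.05. H2BC11 had a difference of 1.11 ± 0.28 (adjusted p = 0.0196) and H4C14 of 0.71 ± 0.17 (adjusted p = 0.0121). Without run 8 this test called 6 members, H2BC21, H2BC11 and the copies H2AC18, H2AC19, H4C14 and H4C15, with 1.28 ± 0.20 (adjusted p = 7.84e-05) for H2BC11 and 0.76 ± 0.16 (adjusted p = 0.00429) for H4C14.

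The controls themselves differed between 6 h and 24 h of serum-free medium, and 7 of 31 members were called, against 6.73% of all genes. Of these, 6 were lower at 24 h (1.96% of all genes were called lower): H3C14 and H3C15, H2AC18 and H2AC19, H2AC6 and H2BC11. H2AC6 went from 5.52 to 8.94 CPM at 6 h to 2.80 to 5.11 CPM at 24 h without overlap (−0.83 ± 0.17, adjusted p = 0.000218), and H2BC11 from 6.00 to 7.20 CPM to 3.06 to 4.59 CPM, also without overlap (−0.68 ± 0.19, adjusted p = 0.00499).
No title run held both times, so time and title run cannot be told apart here. With only the 2 control groups in the fit, none of these 6 members was called.

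H1-10 did not pass the test in any comparison with control. It was at 110, 136, 139 and 179 CPM after 6 h of AII+EGF and at 197, 160, 183 and 219 CPM in the controls. The highest stimulated library lay among the controls, and the log2 change was −0.43 ± 0.18 (adjusted p = 0.0623). At 24 h of AII+EGF it was 0.28 ± 0.15 (adjusted p = 0.186).

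Summed over 65 members, with H1-10 and the second copy of each pair among the 5 set aside, the level was 249.5 to 297 CPM in 6 h controls, 215 to 267 CPM with AII, 222 to 252 CPM with EGF and 183 to 220 CPM with AII+EGF. The AII+EGF libraries lay below all 6 h controls. At 24 h the sum was 169 to 277 CPM (median 203) in controls, 192 to 253 CPM with AII, 232 to 300 CPM with EGF and 200 to 350 CPM (median 305) with AII+EGF. Control and AII+EGF overlapped through the run 8 library and the highest control.

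**Figure D5:**
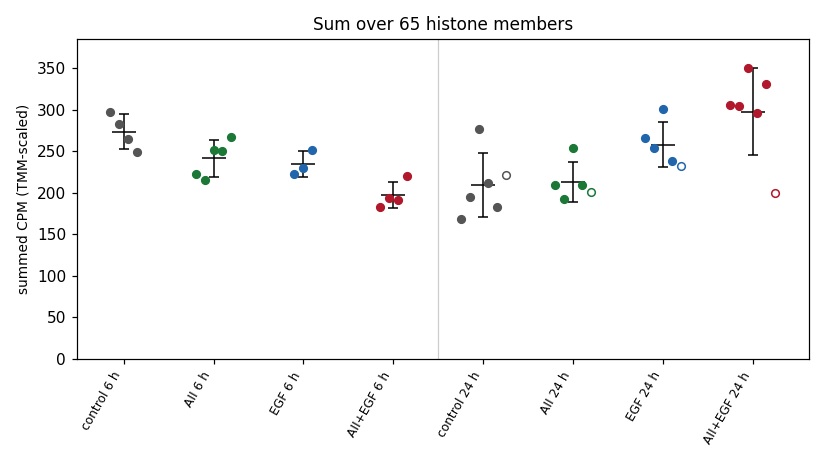
Summed TMM-scaled CPM (vertical, from 0) per library over 65 histone members, with H1-10, H4C15, H3C15 and H2AC19 among those set aside; open points belong to run 8 and bars give mean ± SD. The AII+EGF libraries sit between 183 and 220 at 6 h and reach 350 at 24 h.

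RNAs that have no poly(A) tail, such as the signal recognition particle RNA RN7SL1, report how much tail-less RNA entered a library. Of 26 such RNAs 2 were tested, RN7SL1 and RN7SL3, and none was called in any comparison with control. Group means of RN7SL1 were 5.72 to 11.7 CPM. Those of RN7SL3 were 0.267 to 0.696 CPM, under the 5 CPM a call needs, so it could not be called. The summed level of both, mostly RN7SL1, was 5.16 to 22.6 CPM in 6 h controls (median 6.85), 5.12 to 7.10 CPM with EGF and 3.58 to 9.97 CPM with AII+EGF (median 5.33). The 22.6 CPM came from control 6 h replicate 6, and the other 6 h controls had 5.16 to 8.43 CPM. These groups overlapped, while the log2 estimates of RN7SL1 and RN7SL3 at 6 h lay between −0.57 and −0.89 with EGF or AII+EGF. At 24 h the run 8 library was the highest of each group. It had 32.4 CPM in control, 26.3 CPM with AII, 36.3 CPM with EGF and 19.7 CPM with AII+EGF. The other 24 h libraries had 3.37 to 13.3 CPM. The part of tail-less RNA in the histone falls was not tested, and in bulk RNA fewer cells in S phase and less RNA per cell cannot be told apart.
Of 24 genes that replicate DNA or mark S phase, 3 were called at 6 h of AII+EGF, a share near the 12% of all genes. RRM2, the small subunit of ribonucleotide reductase, and CCNE2, a cyclin of the entry into S phase, rose (1.03 ± 0.12 and 0.72 ± 0.18), and CDT1, which licenses replication origins, fell (−0.84 ± 0.21). The median of the list was −0.08, and at 24 h no S phase gene was called.
Of 19 genes for the 3′ processing and decay of histone mRNA, SLBP among them, none was called in a comparison with control, and neither was any of 13 histone chaperone and assembly genes or 12 transcription factors of histone genes. With AII+EGF their median log2 changes at 6 h and 24 h were 0.04 and −0.04 for processing and decay, 0.05 and −0.07 for chaperones and 0.11 and −0.18 for transcription factors, beside −0.03 and −0.02 for all genes. At 6 h of AII+EGF, where 12% of all genes were called, 1 of 4 other tested replication-dependent histone genes was called, H2AW, an H2A gene on chromosome 1 outside the name rule (−1.04 ± 0.20, adjusted p = 9.24e-05). Of 7 tested replication-independent variants 1 was called there, MACROH2A2, a large H2A variant of silent chromatin (−0.59 ± 0.13), and at 24 h none was. MACROH2A1 moved the other way at 6 h (0.47 ± 0.10, adjusted p = 0.000253) and missed a call on the 1.5-fold minimum.
In the 24 h controls against those at 6 h, where 6.73% of all genes were called and 1.96% called lower, 4 of 19 genes of histone mRNA processing were called, all lower, among them SRRT (−0.80 ± 0.11), which links capped RNA to processing, and CPSF2 (−0.69 ± 0.10), part of the cleavage machinery. The transcription factors E2F4 (−0.76 ± 0.15) and NFYA (−0.71 ± 0.10), the DNA-binding subunit of the CCAAT factor, and the S phase genes CCNE1 (−0.67 ± 0.15) and UNG (−0.61 ± 0.11) were also called lower, 2 of 12 and 2 of 24 genes of their lists. Time and title run cannot be told apart for these genes either.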

How the data were processed

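RNA of the 48 libraries was enriched with oligo(dT) beads, primed with random hexamers and sequenced. Per the labels and the study's methods, the authors aligned reads to hg38 with HISAT2 2.1.0 and counted them per gene with featureCounts; the deposited values are raw counts. How reads matching several genes were counted is not given in the sources used here, which bears on copies. Every column belonged to a sample (0 columns left unused).

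The 38 libraries used held 17783804 to 29956472 counts. Genes were kept with edgeR's expression filter (19626 of 60610), scaled by TMM, and fitted over all 8 groups in 1 quasi-likelihood model (edgeR 4.0.16, R 4.3.3) with Benjamini-Hochberg adjustment over the genes tested. Calls required an adjusted p under 0.01, a 1.5-fold or larger difference and, in the higher group, a mean over 5 CPM. DESeq2 1.42.0, other filters, scalings and sample choices, title run as a block and leaving out single libraries were tried as alternatives. The code was tested on simulated data.

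Members, lists, comparisons and tests were chosen with earlier results of these data known. The genes named by rule were H2BC11, all called members, in each comparison with control the 2 largest rises and 2 largest falls among members without overlap, the 6 with the highest mean CPM, and the near-equal copies. H4C9, H2AC11, H2AC20, H2BC4, H3C6, H3C10 and, from the other lists, MACROH2A1 were named after their values were seen. Of other lists, called genes were named, at most 2 in each direction. Promoters and positions came from RefSeq on GRCh38.p14 and transcript ends from GENCODE release 44. Results of 1 member are not reported here, although it is counted among the members.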

Additional observations from a re-analysis of the deposited data

Results flagged for a closer look

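Among the named members, a single library stood apart from the rest of its group in 5 of 91 groups of values tested (5.49%), where chance gives about 1 in 20. In 4 of these the library was that of run 8 and the lowest of its group. H2BC11 stood at 4.24 CPM in the run 8 AII+EGF library, against 10.3 CPM in the next. H2BC21 was at 5.87 CPM with AII, 7.56 CPM with EGF and 5.96 CPM with AII+EGF in that run, where the next libraries had 9.20, 13.2 and 18.3 CPM. The remaining one was H1-2 in control 24 h replicate 3, the highest of its group at 29.7 CPM with the next at 21.1 CPM.

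The response to AII+EGF differed between 6 h and 24 h in 11 named members by edgeR's test of that difference, with the 24 h value always the higher. On the log2 scale the differences were 2.12 ± 0.31 (SE) for H2BC21, 2.01 ± 0.26 and 2.00 ± 0.25 for the copies H2AC18 and H2AC19, 1.69 ± 0.32 for H1-2 and 1.59 ± 0.27 for H2BC11. They were 1.45 ± 0.24 for H2AC6, 1.36 ± 0.16 for H4C14 and 1.36 ± 0.16 for H4C15, 1.31 ± 0.27 for H3C14, 1.30 ± 0.27 for H3C15 and 1.28 ± 0.24 for H2BC5. No title run held both times, so the difference compares separate runs, each time against the pooled controls of that time. At 6 h, title run 1 had AII+EGF libraries but no control in the comparison. Title run 7 had a control but no AII+EGF library.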

How the results depend on the processing

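No paired analysis was possible because the labels give the groups no shared replicate numbers, and title run stood in for a replicate block. No change in direction occurred among the 15 called log2 changes of named members in 204 alternative values, and 3 values, 1 for H2BC21 at each time and 1 for H2BC11 with EGF at 24 h, were no longer called, besides the single libraries named for H2BC11 above. The counts of members called with AII+EGF against control stayed within 1.5 times of 9 at 6 h and 5 at 24 h under every alternative run. The other counts moved as follows. For the EGF response at 24 h minus 6 h (0 members), DESeq2 gave 3, an adjusted p under 0.05 gave 4, all 48 libraries 2, 46 libraries 6, title run as a block 6 and leaving out run 8 6. For EGF at 24 h (1 member), an adjusted p under 0.05 gave 3, only the groups compared 0, the block 3 and leaving out run 8 4, and over all genes the count of 48 was 2 with only the groups compared and 137 with the block. For AII+EGF against EGF at 6 h (0), an adjusted p under 0.05 gave 3, and no fold minimum, only the groups compared and leaving out run 8 gave 2 each. For EGF at 6 h (0), no fold minimum, only the groups compared, all 48 libraries and leaving out run 8 gave 2 each, and 46 libraries 3. For the controls (7), no abundance minimum gave 11 and only the groups compared 1. Leaving out single libraries gave 9 to 10 members with AII+EGF at 6 h, 5 to 6 at 24 h, 0 to 1 with EGF at 24 h, 0 to 2 for AII+EGF against EGF at either time, 11 to 14 and 0 to 2 for the time differences of AII+EGF and EGF, and 4 to 9 for the controls, the lowest without control 6 h replicate 3 or 4. Leaving out run 8, using only title runs 4 and 5 at 6 h and counting copies once were chosen after seeing the data. The 39 members below the count filter could not be compared at this depth, and the causes of these shifts were not tested.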

Other observations

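The 2 libraries whose labels were in doubt entered no comparison. In the one labelled AII 6 h, H4C14 was at 26.5 CPM, H2BC21 at 4.86 CPM and H2BC11 at 7.08 CPM, scaled over all 48 libraries. In the one labelled AII+EGF 6 h, H4C14 was at 44.6 CPM, H2BC21 at 8.90 CPM and H2BC11 at 5.41 CPM.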
